A study of Homo sapiens with 12 samples.

Results

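The HOXA genes are the homeobox genes of a single cluster on human chromosome 7, and their mRNA was examined here in CWR22Rv1, an established human prostate carcinoma cell line. Members were taken as the rows whose symbol was HOXA followed by a number from 1 to 13, and 10 of the 13951 genes listed met this rule. The 9 described here are HOXA3, HOXA4, HOXA5, HOXA6, HOXA7, HOXA9, HOXA10, HOXA11 and HOXA13. RNA-seq of poly-A RNA was available for 12 libraries in 4 groups of 3, all from cells kept in puromycin and seeded 48 h before harvest. Control cells expressed Cas9 and received no guide RNA. LV-MEIS1 cells expressed MEIS1 from a lentivirus. HOXB13ko cells were CRISPR-edited at HOXB13 and are a pool of recombined knockout clones that also carried Cas9, and HOXB13ko-LV-MEIS1 cells are the same pool infected with the MEIS1 lentivirus. Each group is thus a single derived line or pool, and nothing says that replicates came from separately derived lines, so that the p-values measure only the spread between these libraries.

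HOX genes encode homeodomain transcription factors that give cells their position along the body axis, and within a cluster the order of the genes follows the order in which they are used, from anterior at the 3′ end to posterior at the 5′ end. Posterior HOX genes continue to be expressed in the adult urogenital tract, the prostate included. MEIS and PBX proteins are homeodomain cofactors that bind DNA together with HOX proteins. The comparisons asked whether MEIS1, the HOXB13 edit, or both together were accompanied by a different level of the HOXA genes.

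The labels were first set against the mRNA of both manipulated genes. MEIS1 was at 4.24, 4.45 and 4.05 CPM, a read count divided by the library size, in Control and at 49.6, 46.8 and 45.8 CPM in LV-MEIS1. It was at 3.65, 3.59 and 3.42 CPM in HOXB13ko and at 30.1, 29.8 and 29.3 CPM in HOXB13ko-LV-MEIS1, so that the lentiviral groups stood apart from the others and the edited one held less MEIS1 than LV-MEIS1. HOXB13 was at 185, 215 and 187 CPM in Control, at 152, 150 and 151 CPM in LV-MEIS1, at 347, 326 and 307 CPM in the libraries labelled HOXB13ko and at 326, 361 and 375 CPM in the HOXB13ko-LV-MEIS1 libraries. HOXB13 mRNA was thus above the Control level in all libraries labelled as knockouts. An edit of the coding sequence need not remove the mRNA, so these values do not check the knockout, and HOXB13ko is used below as a label. Each library held an estimated 17176000 to 28680000 reads, at which 3 reads correspond to 0.105 to 0.175 CPM, and the Pearson correlation between replicates ran from 0.990 to 0.995. All 10 luminal prostate markers were listed, and their summed level was 2600 to 2634 CPM in LV-MEIS1 and 3474 to 3918 CPM in the other groups. The basal (0 of 3 markers listed) and endothelial (0 of 3) lists had no listed gene, and of the leukocyte markers PTPRC, CD3E and CD14 were not listed. Of 6 fibroblast markers COL1A1 and PDGFRB were listed, with a summed level of 30.2 to 34.9 CPM in LV-MEIS1 and 14.6 to 20.8 CPM elsewhere. The sum was mostly COL1A1, with means of 14.5 CPM in Control and 32.8 CPM in LV-MEIS1. PDGFRB went the other way, with means of 1.41 and 0.27 CPM. The part of these lists in any HOXA difference was not tested.

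The 9 genes lie between positions 27106184 and 27200091 of chromosome 7 (GRCh38), all on the minus strand, over 93.9 kb. HOXA13 is at the 5′ end and HOXA3 at the 3′ end of this stretch. Summed over the 9 genes, the level was 95.9 ± 0.981 CPM (SD, n = 3) in Control, 89.2 ± 0.931 in LV-MEIS1, 78.0 ± 4.66 in HOXB13ko and 78.6 ± 4.53 in HOXB13ko-LV-MEIS1. In LV-MEIS1 the sum hid genes that moved in opposite directions, as the plot of levels by library shows. In both HOXB13ko-labelled groups every described HOXA gene but HOXA10 was estimated below Control. The log2 difference of the sum from Control was -0.10 in LV-MEIS1 (limma eBayes, defined below, adjusted p = 0.135). It was -0.30 in HOXB13ko and -0.29 in HOXB13ko-LV-MEIS1 (eBayes adjusted p = 0.00108 for each). To set a gene beside another, CPM was divided by the length of its annotated exons. By this measure HOXA5, a regulator of lung and skeletal patterning, was highest with a mean of 9.94 CPM per kb over the 12 libraries. HOXA6 followed with 5.96 CPM per kb, HOXA7 with 4.56, HOXA9 with 3.56, HOXA13 with 3.09, HOXA10 with 2.98 and HOXA4 with 2.55. HOXA3 with 1.37 and HOXA11 with 0.693 CPM per kb were lowest of the 9. HOXA5 was highest and HOXA11 lowest in each of the 4 groups, but places between them moved with the group. HOXA13 came next after HOXA6 in Control (4.62 CPM per kb, above HOXA7 with 4.03) and below HOXA4 in HOXB13ko-LV-MEIS1 (2.15 against 2.64). HOXA11 was close to the bottom of the listed genes, with a mean CPM at the 6.3 percentile. With the longest transcript as the length, HOXA10 and HOXA13 exchanged places and the other 7 kept their rank.

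**Figure D1:**
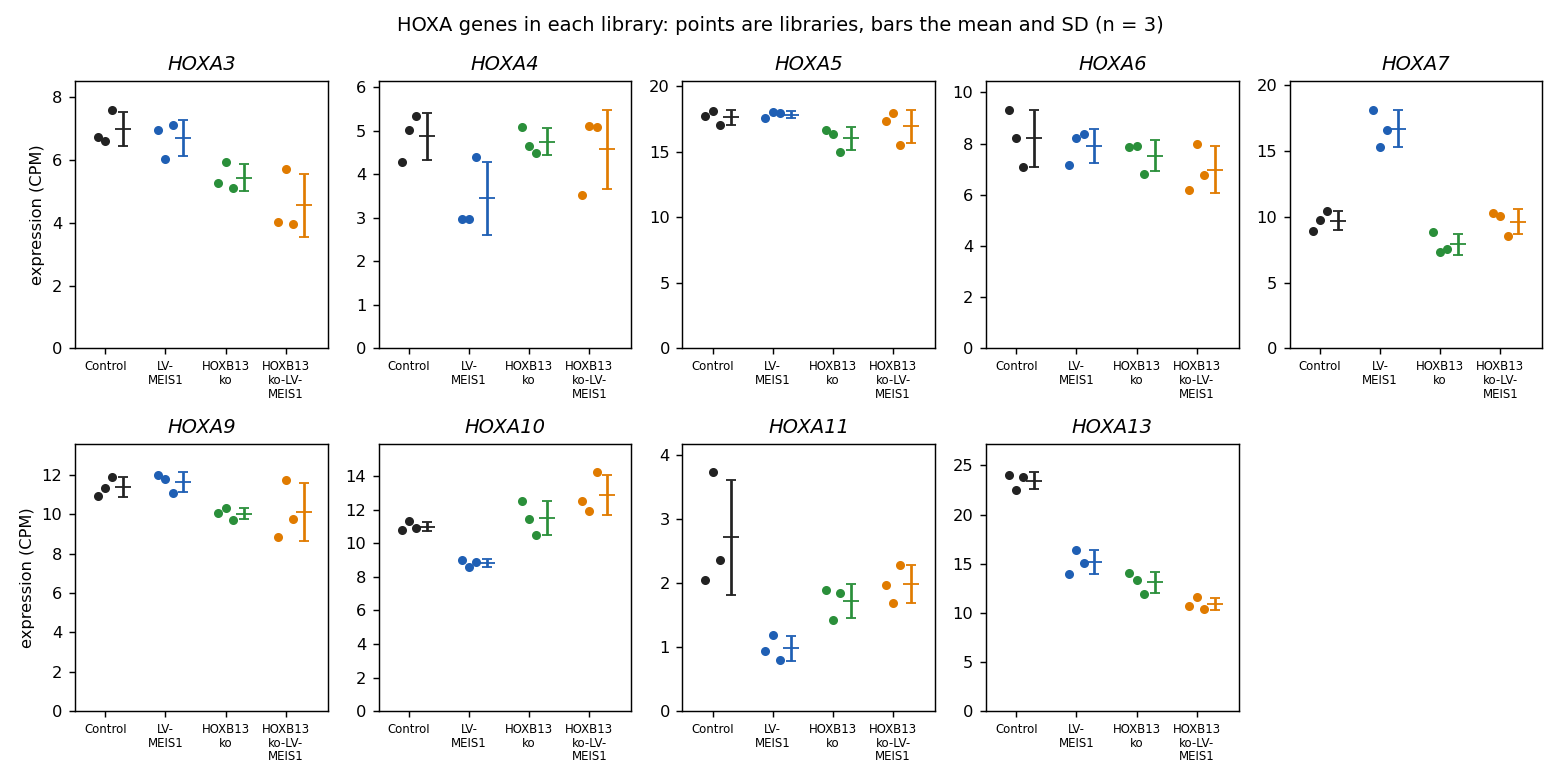
Expression in CPM (y axis, linear, from 0, scaled separately for each gene) of the 9 HOXA genes in the 4 groups (x axis). Points are single libraries and the bars beside them the mean and SD of 3 libraries. HOXA7 was between 15.3 and 18.2 CPM in LV-MEIS1 and did not exceed 10.4 CPM elsewhere, and HOXA13 was at 22.5 CPM or more in Control and at 16.4 CPM or less elsewhere.

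**Figure D2:**
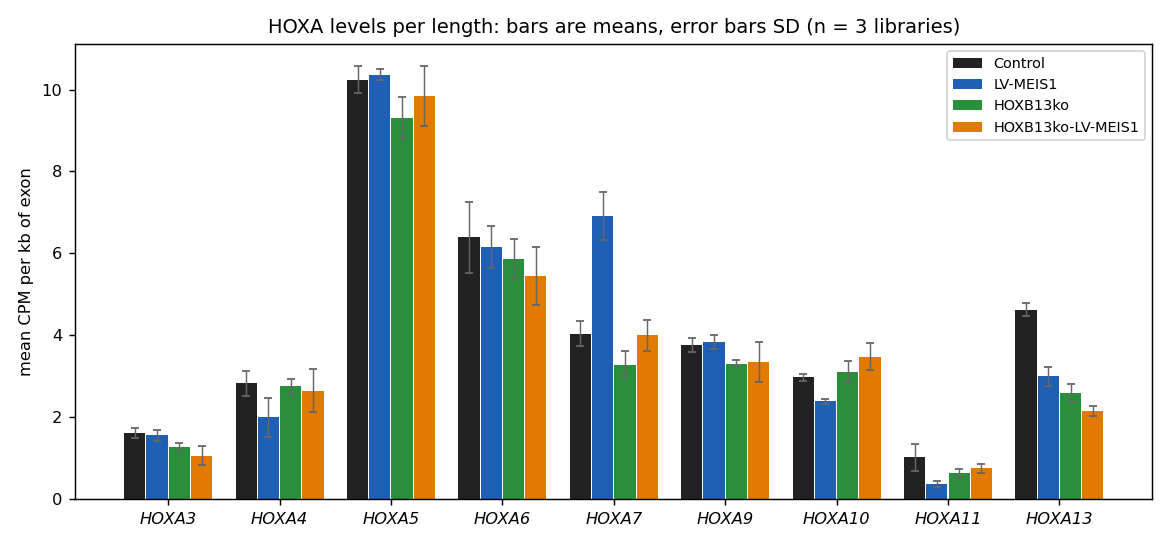
Mean CPM per kb of annotated exon (y axis, from 0) of each HOXA gene in the 4 groups, with the SD of 3 libraries as error bars. HOXA5 was highest in every group, and HOXA7 in LV-MEIS1 reached 6.92 CPM per kb, against 6.16 for HOXA6 in the same libraries.

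Differences were tested in limma on log2(CPM + 0.5), and fold changes below are differences on this scale, where those of low genes come out too small. A gene is said to have risen or fallen where limma's eBayes test against no change gave a Benjamini-Hochberg adjusted p under 0.05 over all 13951 genes, and to have passed the 1.5-fold test where limma's treat test against a fold change of 1.5 did so. Comparisons that share a group, such as those with the same Control libraries, are not independent of each other.

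In LV-MEIS1 against Control, 5 of the 9 HOXA genes moved by eBayes, beside 44.5% of all genes tested. HOXA7 rose, and HOXA4, HOXA10, HOXA11 and HOXA13 fell, with HOXA11 at less than 1 CPM on average in LV-MEIS1. These are bulk libraries, in which fewer cells with a transcript and less of it per cell cannot be told apart. None passed the 1.5-fold test (limma treat; 1 gene, HOXA11, had an unadjusted treat p under 0.05), beside 3.99% of all genes. The median of the absolute log2 fold changes was 0.30 over the HOXA genes and 0.20 over all genes, and the signed medians were -0.06 and 0.01. HOXA3, HOXA5, HOXA6 and HOXA9 differed by at most 0.06 in either direction, and HOXA7, which rose, lies between HOXA6 and HOXA9. The moved genes were therefore not a contiguous stretch, as the plot along the cluster shows.

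**Figure D3:**
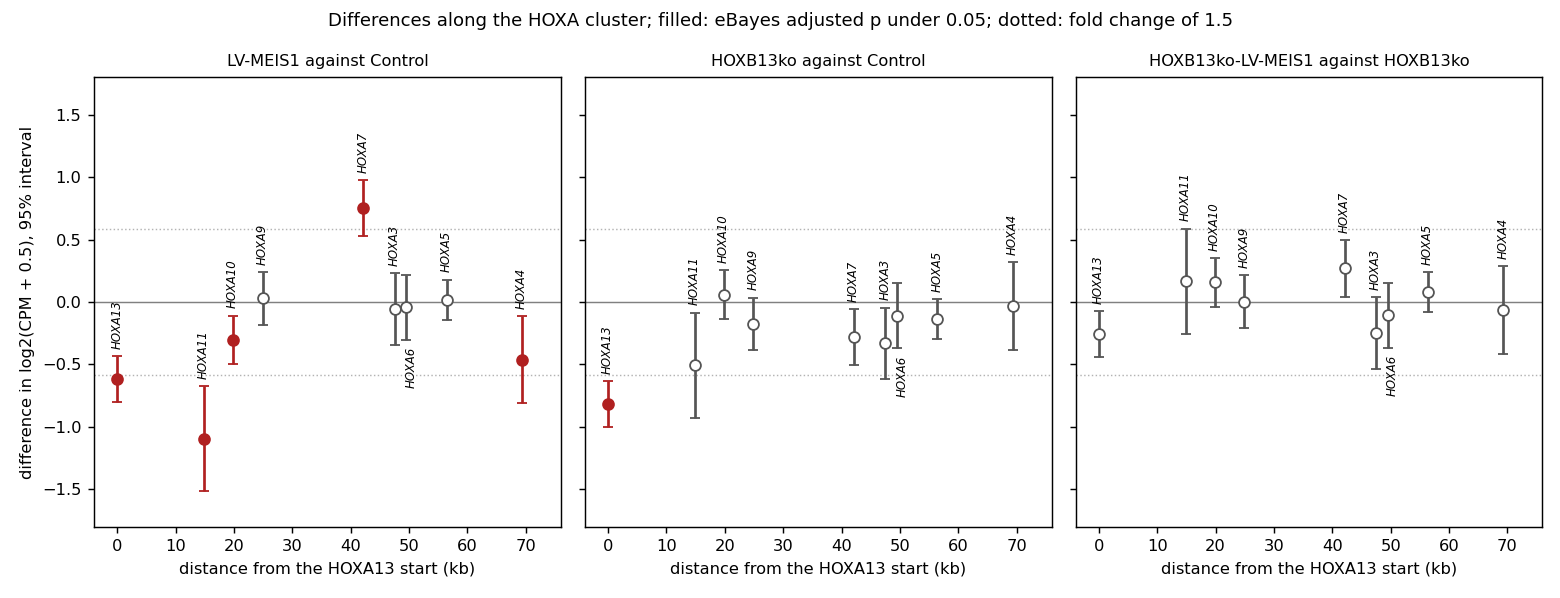
Difference in log2(CPM + 0.5) with its 95% interval (y axis) for each HOXA gene against the distance of its start from that of HOXA13 in kb (x axis), in 3 comparisons. Filled points have an eBayes adjusted p under 0.05 and dotted lines mark a fold change of 1.5. From left to right 5, 1 and 0 points are filled.

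HOXA13, at the posterior end of the cluster, is a factor of distal limb and urogenital development. It was at 24.1, 22.5 and 23.8 CPM in Control, at 14.001, 16.4 and 15.1 CPM in LV-MEIS1, at 14.05, 13.4 and 11.9 CPM in HOXB13ko and at 10.7, 11.6 and 10.4 CPM in HOXB13ko-LV-MEIS1. No library of another group reached the lowest Control library, the HOXB13ko and LV-MEIS1 values overlapped, and the double group was lowest. It fell by 0.61 on the log2 scale in LV-MEIS1 (SE 0.09, eBayes adjusted p = 5.09e-05) and fell by 0.82 in HOXB13ko (SE 0.09, eBayes adjusted p = 8.92e-06; treat adjusted p = 0.418) against Control. In HOXB13ko-LV-MEIS1 against Control it fell by 1.07 (SE 0.09), and this was the only HOXA gene to pass the 1.5-fold test in that comparison (treat adjusted p = 0.00273; 1.58% of all genes passed). Adding MEIS1 to the HOXB13ko pool gave a difference of -0.25 (95% interval -0.44 to -0.07, eBayes adjusted p = 0.208). Its exons shared 1.7% of their bases with HOTTIP on the opposite strand, the least of the genes at this end of the cluster.

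The sequence upstream of HOXA13 is shown because this gene differed from Control in all 3 other groups, and that of HOXA11, the next listed gene of the cluster, because it was lowest in LV-MEIS1 alone. Both are the 250 bases before the start site in RefSeq (GRCh38.p14), read 5′ to 3′ on the minus strand, at chr7:27200092-27200341 for HOXA13 and chr7:27185233-27185482 for HOXA11. They are all in lower case because none of the 3 motifs searched was found in them.
HOXA13: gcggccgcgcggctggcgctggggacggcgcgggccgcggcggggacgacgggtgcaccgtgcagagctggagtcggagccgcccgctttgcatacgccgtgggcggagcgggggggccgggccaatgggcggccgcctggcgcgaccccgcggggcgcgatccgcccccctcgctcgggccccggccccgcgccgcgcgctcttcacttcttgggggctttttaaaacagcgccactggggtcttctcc
HOXA11: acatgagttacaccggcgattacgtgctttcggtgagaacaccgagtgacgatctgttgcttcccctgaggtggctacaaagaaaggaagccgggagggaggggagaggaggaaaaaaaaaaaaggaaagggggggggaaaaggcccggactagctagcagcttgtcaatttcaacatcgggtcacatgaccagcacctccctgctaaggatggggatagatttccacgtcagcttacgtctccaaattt

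The windows searched were these 250 bases plus the 50 after the start, and their GC content was 76.3% for HOXA13 and 51.3% for HOXA11. The letters searched, on both strands, were TGACAG for MEIS, CAATAAA for posterior HOX proteins and TGATTNAT for HOX with PBX. They were present in 15.8%, 4.0% and 2.82% of all 35116 promoter windows of this length. Of the 9 HOXA genes, 8 had 15 windows in the table. TGACAG was in 2 of them, CAATAAA in 2 (both of HOXA3) and TGATTNAT in 0. The sites are given with the match in capitals, as 30 bases on the minus strand: the MEIS letters of HOXA4 at chr7:27130847-27130876 and of HOXA13 at chr7:27200059-27200088, which begin 16 bases into the HOXA13 transcript, and the reverse complement of the posterior HOX letters in 2 windows of HOXA3, at chr7:27150995-27151024 and chr7:27119789-27119818.
HOXA4: ggagtgggcactTGACAGcggggggagggg
HOXA13: cggctcgggctaTGACAGcctccgtgctcc
HOXA3: gcgggccgattaTTTATTGcgaccgtgctg
HOXA3, other window: taggtctcttctTTTATTGcctttctgatt
HOXA4 and HOXA13 were among the genes that fell in LV-MEIS1, and HOXA7, HOXA10 and HOXA11, which also moved there, had no MEIS letters in their windows. A match of letters is a description and not a measured binding site, and its part in these differences was not tested.

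HOXA11, known for its part in forearm, kidney and uterine development, was the lowest of the posterior genes. It was at 2.05, 3.73 and 2.37 CPM in Control, at 0.941, 1.19 and 0.803 CPM in LV-MEIS1, at 1.89, 1.42 and 1.84 CPM in HOXB13ko and at 1.97, 1.70 and 2.29 CPM in HOXB13ko-LV-MEIS1. All LV-MEIS1 libraries lay below all others, and Control replicate 2 stood well above the rest of its group. HOXA11 fell by 1.09 in LV-MEIS1 against Control (SE 0.20, eBayes adjusted p = 0.000464), with a treat adjusted p of 0.211. In HOXB13ko against Control the difference was -0.51 (95% interval -0.93 to -0.09, eBayes adjusted p = 0.0607), -0.66 without Control replicate 1 (eBayes adjusted p = 0.0254) and -0.29 without Control replicate 2 (eBayes adjusted p = 0.299). Adding MEIS1 to the HOXB13ko pool gave 0.17 (95% interval -0.26 to 0.59, eBayes adjusted p = 0.725). The lowest library rested on an estimated 17 reads, and 27.2% of the HOXA11 exon bases are shared with HOXA11-AS on the opposite strand, which the listed values could not separate.

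HOXA10, a factor of uterine and posterior axial development, was at 10.8, 11.3 and 10.9 CPM in Control, at 9.02, 8.58 and 8.88 CPM in LV-MEIS1, at 12.6, 11.5 and 10.5 CPM in HOXB13ko and at 12.5, 11.9 and 14.2 CPM in HOXB13ko-LV-MEIS1. The LV-MEIS1 libraries were again below all others, by a smaller margin, and the HOXB13ko values overlapped those of Control. It fell by 0.30 in LV-MEIS1 against Control (SE 0.09, eBayes adjusted p = 0.0143). It was higher by 0.52 in HOXB13ko-LV-MEIS1 than in LV-MEIS1 (SE 0.09, eBayes adjusted p = 0.000275). HOXA9, which shares exon bases with a readthrough gene that also covers HOXA10, was at 10.9, 11.3 and 11.9 CPM in Control, at 12.01, 11.8 and 11.1 CPM in LV-MEIS1, at 10.1, 10.3 and 9.73 CPM in HOXB13ko and at 8.84, 11.7 and 9.77 CPM in HOXB13ko-LV-MEIS1. HOXA9, a partner of MEIS1 in leukaemia, differed by 0.03 in LV-MEIS1 (95% interval -0.18 to 0.24) and passed neither test in any comparison, with the exception that without HOXB13ko-LV-MEIS1 replicate 2 it passed eBayes against Control (difference -0.28, adjusted p = 0.0348) and against LV-MEIS1 (-0.31, adjusted p = 0.0154). When HOXA9 and HOXA10 were summed, both calls of HOXA10 were lost. HOXA9 was at a similar level and passed neither test with all libraries, so adding it makes a HOXA10 difference smaller in any case. The sum therefore cannot decide how reads were shared between these genes. The summed difference was -0.13 in LV-MEIS1 against Control (eBayes adjusted p = 0.151). Between HOXB13ko-LV-MEIS1 and LV-MEIS1 it was 0.16 (eBayes adjusted p = 0.0629).

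Among the central genes, only HOXA7 moved. HOXA7, which like HOXA9 is expressed in blood progenitors, was at 8.95, 9.79 and 10.4 CPM in Control, at 18.2, 15.3 and 16.6 CPM in LV-MEIS1, at 8.84, 7.33 and 7.55 CPM in HOXB13ko and at 10.3, 10.1 and 8.55 CPM in HOXB13ko-LV-MEIS1. The 3 LV-MEIS1 libraries lay above all 9 others. HOXA7 rose by 0.75 against Control (SE 0.11, eBayes adjusted p = 5.29e-05; treat adjusted p = 1), and was lower by 0.76 in HOXB13ko-LV-MEIS1 than in LV-MEIS1 (log2 difference -0.76, SE 0.11, eBayes adjusted p = 3.11e-05). The difference of 1.03 between LV-MEIS1 and HOXB13ko passed the 1.5-fold test (treat adjusted p = 0.00748; 6.25% of all genes passed). Of the HOXA7 exon bases, 62.5% are also exonic in HOXA-AS3, a long noncoding RNA on the opposite strand, and strand was not used in the counting. HOXA-AS3 was at 6.71, 5.51 and 5.00 CPM in Control and at 6.89, 8.44 and 6.79 CPM in LV-MEIS1 (log2 difference 0.34, eBayes adjusted p = 0.0482). The sum of both rose by 0.62 (eBayes adjusted p = 2.01e-05), from 15.5 ± 0.18 to 24.1 ± 0.87 CPM (SD, n = 3).

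HOXA5 and HOXA6 stand beside HOXA7 in the cluster and did not pass either test in any comparison. HOXA5 was at 17.7, 18.1 and 17.003 CPM in Control, at 17.5, 18.0 and 17.9 CPM in LV-MEIS1, at 16.6, 16.4 and 15.0 CPM in HOXB13ko and at 17.3, 17.9 and 15.5 CPM in HOXB13ko-LV-MEIS1. Its highest library was 1.21 times its lowest, the narrowest range of the 9 genes, and the 95% interval of the LV-MEIS1 difference was -0.14 to 0.18. HOXA6 ranged from 6.20 to 9.31 CPM over the 12 libraries, with differences between -0.22 and 0.07 in the pairwise comparisons. Of the HOXA6 exon bases, 39.3% are shared with HOXA-AS3.

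The anterior genes described were HOXA3 and HOXA4. HOXA3, required for the thymus and parathyroid glands, was at 6.72, 6.60 and 7.59 CPM in Control, at 6.95, 6.03 and 7.10 CPM in LV-MEIS1, at 5.26, 5.93 and 5.11 CPM in HOXB13ko and at 4.01, 5.72 and 3.94 CPM in HOXB13ko-LV-MEIS1. Values of the HOXB13ko-labelled groups lay below those of both other groups. HOXA3 fell by 0.58 in HOXB13ko-LV-MEIS1 against Control (SE 0.13, eBayes adjusted p = 0.00408), and its difference in HOXB13ko against Control was -0.33 (95% interval -0.62 to -0.05, eBayes adjusted p = 0.0703). HOXA4 was at 4.28, 5.01 and 5.33 CPM in Control, at 2.97, 2.96 and 4.40 CPM in LV-MEIS1, at 5.09, 4.66 and 4.49 CPM in HOXB13ko and at 3.51, 5.10 and 5.10 CPM in HOXB13ko-LV-MEIS1. LV-MEIS1 replicate 3 overlapped the Control libraries. HOXA4 fell by 0.46 in LV-MEIS1 (SE 0.16, eBayes adjusted p = 0.0334), and this was lost (eBayes adjusted p from 0.0821 to 0.122) without Control replicate 2, Control replicate 3, LV-MEIS1 replicate 1 or LV-MEIS1 replicate 2. Of the HOXA4 exon bases, 31.3% are shared with another gene on the same strand and 16.5% with genes on the opposite strand. For HOXA3 these shares are 9.3% and 17.3%.

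In HOXB13ko against Control, 1 of the 9 HOXA genes, HOXA13, moved by eBayes, and fell, beside 32.9% of all genes. The 1.5-fold test called 0 (limma treat; HOXA13 had an unadjusted treat p under 0.05), beside 1.41% of all genes. The median absolute log2 fold change was 0.18 over the HOXA genes and 0.17 over all genes. HOXA7 differed by -0.28 (eBayes adjusted p = 0.0512), and passed eBayes without Control replicate 1 (adjusted p = 0.0343) or HOXB13ko replicate 1 (adjusted p = 0.0265), and with equal sums (adjusted p = 0.0492).

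In HOXB13ko-LV-MEIS1 against HOXB13ko, which asks for the effect of MEIS1 in edited cells, 0 of the 9 HOXA genes moved by eBayes, beside 0.0502% of all genes, and 0 passed the 1.5-fold test, beside 0.00717%. No HOXA gene had an unadjusted treat p under 0.05 there. The largest difference was 0.27 for HOXA7 (95% interval 0.04 to 0.49, eBayes adjusted p = 0.26). The median absolute log2 fold change was 0.16 over the HOXA genes and 0.09 over all genes.

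In HOXB13ko-LV-MEIS1 against LV-MEIS1, which compares edited with unedited cells that both carried MEIS1, 5 of the 9 HOXA genes moved by eBayes, beside 50.1% of all genes, and 0 passed the 1.5-fold test, beside 6.71% (limma treat; 0 with an unadjusted treat p under 0.05). HOXA10 and HOXA11 were higher, by 0.52 (0.16 and no longer passing when summed with HOXA9) and 0.75, and HOXA3, HOXA7 and HOXA13 were lower, with log2 differences of -0.52, -0.76 and -0.46. HOXA4 (0.37, eBayes adjusted p = 0.0776) passed eBayes without LV-MEIS1 replicate 3 (adjusted p = 0.0169) or HOXB13ko-LV-MEIS1 replicate 1 (adjusted p = 0.0176). With HOXB13ko-LV-MEIS1 set against Control, 2 of the 9 moved by eBayes (HOXA3 and HOXA13), beside 37.1% of all genes. With LV-MEIS1 set against HOXB13ko 4 did so (HOXA4, HOXA7, HOXA10 and HOXA11), beside 42.9%, and the call of HOXA4 (eBayes adjusted p = 0.0469) was lost without any 1 of the 3 HOXB13ko libraries or without LV-MEIS1 replicate 1 or 2 (adjusted p from 0.0687 to 0.156).

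The difference of the MEIS1 effects, that is the MEIS1 effect in unedited cells minus that in HOXB13ko cells, was tested directly. By eBayes 4 of the 9 HOXA genes moved, beside 34.2% of all genes, and by the 1.5-fold test 0 did so (limma treat; HOXA11 had an unadjusted treat p under 0.05), beside 2.93%. The difference was -1.26 for HOXA11 (SE 0.28, eBayes adjusted p = 0.00353), -0.46 for HOXA10 (SE 0.13, adjusted p = 0.0139), 0.48 for HOXA7 (SE 0.15, adjusted p = 0.0227) and -0.36 for HOXA13 (SE 0.12, adjusted p = 0.0337). For HOXA10 and HOXA11 the MEIS1 effect was negative in unedited cells and estimated above 0 in HOXB13ko cells, where neither passed eBayes, while for HOXA7 and HOXA13 it had the same sign in both and was larger in unedited cells. The HOXA7 difference was lost (eBayes adjusted p from 0.0533 to 0.0602) without LV-MEIS1 replicate 1, HOXB13ko replicate 1 or HOXB13ko-LV-MEIS1 replicate 3. That of HOXA13 was lost (adjusted p from 0.0539 to 0.0887) without Control replicate 1 or 3, LV-MEIS1 replicate 1 or 3, HOXB13ko replicate 2 or 3, or HOXB13ko-LV-MEIS1 replicate 2. That of HOXA10 was -0.22 when HOXA9 and HOXA10 were summed (eBayes adjusted p = 0.0974). MEIS1 mRNA was lower in HOXB13ko-LV-MEIS1 than in LV-MEIS1 (log2 difference -0.66, eBayes adjusted p = 4.35e-06), and its part in these differences was not tested. Control carried Cas9, whereas LV-MEIS1 is described only as infected with the lentivirus, and both edited groups came from the same pool. In HOXB13ko against Control, derivation from recombined clones cannot be told apart from the edit. The same holds in HOXB13ko-LV-MEIS1 against LV-MEIS1, where Cas9 and the MEIS1 level cannot be told apart from the edit either. In LV-MEIS1 against Control, Cas9, vector and line derivation cannot be told apart from MEIS1. There 44.5% of all genes moved by eBayes, against 0.0502% between the edited groups.

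The order of the 4 group levels differed from gene to gene. HOXA13 ran from Control through LV-MEIS1 and HOXB13ko to HOXB13ko-LV-MEIS1, and only the step from Control to LV-MEIS1 passed eBayes (adjusted p = 5.09e-05; 0.071 and 0.208 for the others, and 0.0441 for LV-MEIS1 against HOXB13ko without LV-MEIS1 replicate 1). HOXA3 and HOXA6 had the same order, with no step that passed. HOXA7 was highest in LV-MEIS1, followed by Control, HOXB13ko-LV-MEIS1 and HOXB13ko, with a first step that passed (eBayes adjusted p = 5.29e-05) and later ones that did not (0.924 and 0.26). HOXA10 and HOXA11 were lowest in LV-MEIS1, and there only the last step passed, from Control for HOXA10 (adjusted p = 0.0143) and from HOXB13ko for HOXA11 (adjusted p = 0.0263; 0.0627 to 0.0968 without LV-MEIS1 replicate 1 or 3 or HOXB13ko replicate 1 or 3, and 0.0787 with quantile scaling). For HOXA4, HOXA5 and HOXA9 no neighbouring groups passed eBayes. For single genes an exact two-sided permutation test of 3 against 3 libraries cannot go below p = 0.1, the value for groups that do not overlap. HOXA13 reached it in 5 of the 6 pairwise comparisons. HOXA3, HOXA7, HOXA10 and HOXA11 also reached it in most of the 6. HOXA4, HOXA5 and HOXA9 did so in fewer, and HOXA6 did not reach it. The share of all genes that reach this value is not given here.

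HOX genes outside the cluster were listed for 7 HOXB, 9 HOXC and 1 HOXD gene. In LV-MEIS1 against Control, where 44.5% of all genes moved by eBayes, 5 of 7 HOXB genes did so (4 up, 1 down), 4 of 9 HOXC genes did so (3 up, 1 down), and HOXD9 rose and passed the 1.5-fold test (log2 difference 1.38, treat adjusted p = 0.0164). HOXD9 was low in Control, at 0.407, 0.692 and 0.887 CPM, with an estimated 7 reads in the lowest library. HOXA7 and HOXB7 both rose, HOXB7 by 0.35 (eBayes adjusted p = 0.027). HOXA5 did not pass, with a difference of 0.02, beside a rise of 0.74 for HOXB5 and of 0.78 for HOXC5. HOXA13 and HOXB13 fell, HOXB13 by 0.37, and HOXC13 rose by 0.31 (eBayes adjusted p = 0.0119). Of the other listed paralogues of HOXA9 and HOXA10, HOXB9 (-0.01), HOXC9 (0.11) and HOXC10 (0.18) did not pass eBayes there, unlike HOXD9. In HOXB13ko cells against Control, 5 of 7 HOXB genes (3 up, 2 down), 1 of 9 HOXC genes and HOXD9 moved by eBayes, beside 32.9% of all genes. No difference between paralogues was itself tested.

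**Figure D4:**
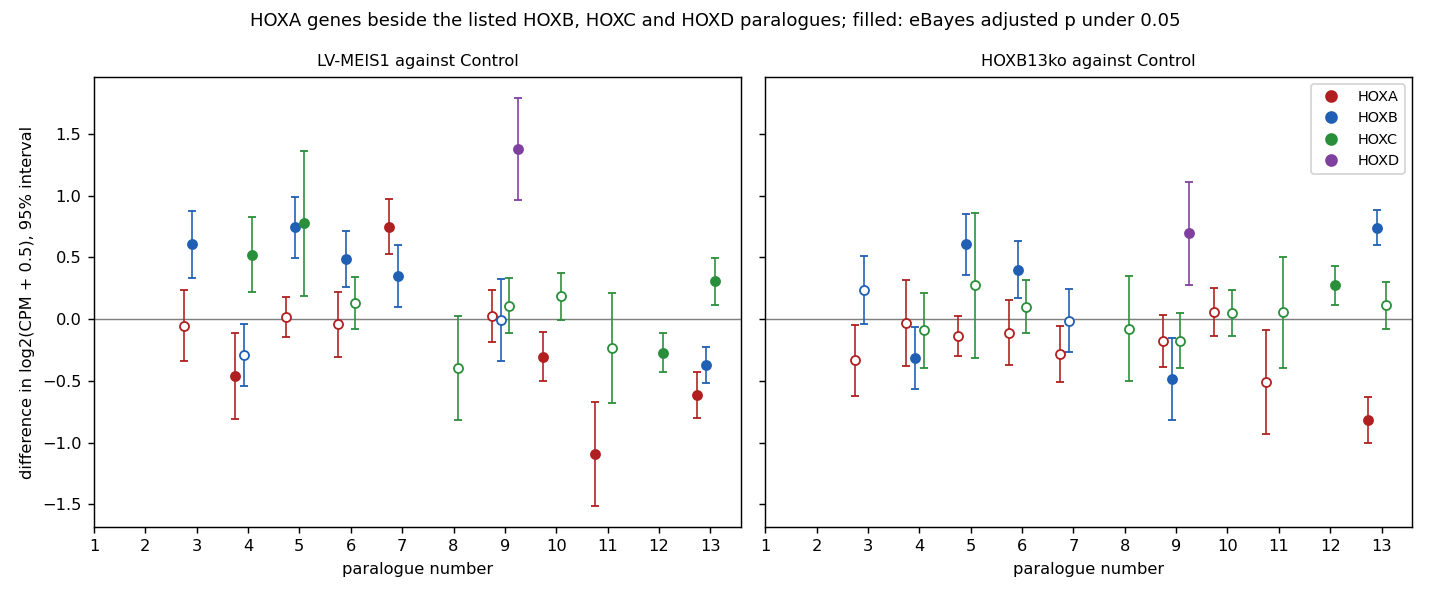
Difference in log2(CPM + 0.5) with its 95% interval (y axis) for the listed HOXA, HOXB, HOXC and HOXD genes by paralogue number (x axis), in LV-MEIS1 and in HOXB13ko against Control. Filled points have an eBayes adjusted p under 0.05. HOXA11 is the lowest point on the left (-1.09) and HOXD9 the highest (1.38), and on the right HOXA13 is the lowest (-0.82).

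Of the genes that share the cluster under other names, HOTAIRM1, a noncoding RNA, and HOXA-AS3 were listed, 2 of 7 sought. HOTAIRM1 differed by 0.10 in LV-MEIS1 against Control (95% interval -0.23 to 0.42). Of the 11 listed genes within 2 Mb of the cluster, 7 moved by eBayes in LV-MEIS1 against Control (4 up, 3 down), beside 44.5% of all genes, and 1, C7orf31, passed the 1.5-fold test (log2 difference 1.29, treat adjusted p = 0.0129), beside 3.99%. In HOXB13ko-LV-MEIS1 against LV-MEIS1, 3 of the 11 passed the 1.5-fold test, beside 6.71% of all genes, C7orf31 (-1.76) and JAZF1 (-1.13) downward and SNX10 (0.94) upward. EVX1, the homeobox gene next to HOXA13, was at 7.45, 7.67 and 8.35 CPM in Control, and fell by 0.57 in LV-MEIS1 (eBayes adjusted p = 0.00431) and fell by 0.55 in HOXB13ko (eBayes adjusted p = 0.00932). As for HOXA13, all Control libraries of EVX1 lay above all libraries of the other groups.

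Genes that act with or on the HOXA cluster were described by lists. Beside their counts, the 1.5-fold test called 3.99% of all genes for LV-MEIS1 and 1.41% for HOXB13ko, each set against Control. The eBayes shares of all genes were 44.5% and 32.9%. Whether a list differed from these shares was not tested. Of 8 MEIS, PBX and related cofactors described here, 1 passed the 1.5-fold test in LV-MEIS1 against Control, MEIS1 itself. In HOXB13ko, 0 of these 8 passed against Control (limma treat; 1 with an unadjusted p under 0.05, 2 by eBayes), and MEIS3 was lower in HOXB13ko-LV-MEIS1 than in LV-MEIS1 (log2 difference -1.32, treat adjusted p = 0.00364). Of 23 Polycomb genes, whose products keep HOX clusters silent, 0 passed the 1.5-fold test in either comparison (limma treat; 0 with an unadjusted p under 0.05), and by eBayes 6 and 3 moved. Of 19 genes of the MLL complexes, CTCF and cohesin, which maintain or insulate active HOX genes, 0 passed in LV-MEIS1 (7 by eBayes; 0 with an unadjusted treat p under 0.05) and 1, PSIP1, rose past the 1.5-fold test in HOXB13ko (log2 difference 0.87, treat adjusted p = 0.0211). Of 7 listed retinoic acid genes, 0 passed in LV-MEIS1 (2 by eBayes; 1 with an unadjusted treat p under 0.05), and in HOXB13ko CRABP2, a retinoic acid carrier, fell (log2 difference -1.08, treat adjusted p = 0.00173) while DHRS3, a retinal reductase, rose (1.19, treat adjusted p = 0.0131).

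Over the 12 libraries, the gene whose log2 level was most like that of HOXA7 was WLS (Pearson r = 0.976, among 13902 genes), with means of 13.8 CPM in Control and 24.8 CPM in LV-MEIS1. SYNPO2 was most like HOXA13 (r = 0.973), with means of 3.52 CPM in Control and 0.782 CPM in HOXB13ko-LV-MEIS1, TMEM98 most like HOXA10 (r = 0.977) and MRPL11 most like HOXA11 (r = 0.965). The lowest leading value was that of HOXA6, with RTL5 (r = 0.796). These values describe libraries that share group and depth, and the largest of 13902 values is high by selection.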

How the data were processed

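The 12 libraries were grouped by their labels. The deposited values are CPM. Single-end reads had been trimmed (Trimmomatic 0.38) and pseudo-aligned to GRCh38.p12 transcripts (kallisto 0.43.1) by the authors, who then made gene-level counts with tximport, filtered low genes and normalised the rest in edgeR 3.22.2. Strand was not used, and reads that fit several transcripts were divided, so overlapping genes are uncertain. Of 13993 rows, 42 exact repeats were dropped, leaving 13951 genes, and 0 columns were unmatched. The steps between low CPM values gave estimates of depth, but only 47.5% to 60.8% of the values under 1 CPM lay within 0.1 of whole reads, so no count model was fitted. Read limits cover counting error only.

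Linear models in limma 3.58.1 (R 4.3.3) used log2(CPM + 0.5) with one mean per group and a trended prior. The treat test (fold change 1.5, Benjamini-Hochberg adjusted p under 0.05 over all genes) was the main call, after the authors' threshold, with eBayes beside it. The test code was checked on simulated data. Named were the HOXA genes, cluster transcripts of other names, listed genes within 2 Mb, the genes most like each HOXA gene by Pearson correlation, paralogues of groups 5, 7, 9, 10 and 13, and the treat-called members of the cofactor, Polycomb, MLL with cohesin, and retinoic acid lists; the text shows some of these. One member and some genes of the lists are not reported here, and counts over members and lists leave them out. Members and lists were chosen with earlier results of these data known. Positions and exon lengths come from GENCODE v44 (GRCh38). Alternatives were pseudocounts of 0.1 and 1, a mean of at least 1 CPM, 3 other scalings, a replicate block, other call rules, only the libraries compared, and leaving out each library. Replicate numbers did not pair the libraries: of 18 same-numbered pairs, 2 had deviations correlated over 0.1.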

Additional observations from a re-analysis of the deposited data

Results flagged for a closer look

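By limma's eBayes test of the difference itself, the MEIS1 effect differed between unedited and HOXB13ko cells for 4 of the 9 HOXA genes. Of all genes, 34.2% passed the same test. The differences were -1.26 on the log2 scale for HOXA11, -0.46 for HOXA10, 0.48 for HOXA7 and -0.36 for HOXA13. No HOXA gene passed the 1.5-fold test (limma treat) of the difference, beside 2.93% of all genes. The HOXA11 and HOXA10 differences passed eBayes with each of the 12 libraries left out in turn, those of HOXA7 in 9 and of HOXA13 in 5 of these 12 fits. MEIS1 mRNA itself was lower in HOXB13ko-LV-MEIS1 (29.7 ± 0.36 CPM, SD, n = 3) than in LV-MEIS1 (47.4 ± 1.96 CPM), and its part in the differences was not tested. In LV-MEIS1 against Control, Cas9, vector and line derivation cannot be told apart from MEIS1. With 3 libraries in each group, single outlying libraries were not tested for.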

How the results depend on the processing

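Under the 1.5-fold test the number of HOXA genes called stayed at 0 in the 4 planned pairwise comparisons and the difference of the MEIS1 effects, and at 1 in the other 2 comparisons, under each pseudocount, filter, scaling and stricter threshold and with each library left out. Other call rules moved it. eBayes against no change called 5 HOXA genes in LV-MEIS1 against Control, 1 in HOXB13ko against Control, 0 in HOXB13ko-LV-MEIS1 against HOXB13ko, 5 in HOXB13ko-LV-MEIS1 against LV-MEIS1, 4 in the difference of the MEIS1 effects, 2 in HOXB13ko-LV-MEIS1 against Control and 4 in LV-MEIS1 against HOXB13ko. In the same order eBayes called 44.5%, 32.9%, 0.0502%, 50.1%, 34.2%, 37.1% and 42.9% of all genes. With a fold change of at least 1.5 added to eBayes the HOXA counts were 3, 1, 0, 2, 1, 1 and 2. Of all 13951 genes, 1636, 806, 5, 2239, 1858, 1047 and 2025 passed this rule. With the replicate block the 1.5-fold test still called 0 HOXA genes in LV-MEIS1 against Control, and by eBayes 1 call was lost, that of HOXA13 in the test of unequal MEIS1 effects (adjusted p = 0.0502). It was also lost with equal sums (adjusted p = 0.0548). With quantile scaling HOXA11 no longer passed eBayes in LV-MEIS1 against HOXB13ko (adjusted p = 0.0787), while HOXA4 in HOXB13ko-LV-MEIS1 against LV-MEIS1 (adjusted p = 0.0252) and HOXA10 in HOXB13ko-LV-MEIS1 against Control (adjusted p = 0.0302) did. With HOXA9 and HOXA10 summed the 4 calls of HOXA10 were lost (adjusted p from 0.0629 to 0.438). Adding HOXA9, at a similar level and without a call of its own, makes a HOXA10 difference smaller in any case. How reads were shared between these genes was not tested.

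Of 635 values of single genes under an alternative, 20 changed sign, all with a log2 difference of at most 0.096 in size as reported. With quantile scaling these were HOXA5 (-0.024) and HOXA9 (-0.023) in LV-MEIS1 against Control, HOXA6 (-0.034) and HOXA9 (-0.071) in the difference of the MEIS1 effects, HOXA7 (0.06) in HOXB13ko-LV-MEIS1 against Control and HOXA6 (-0.001) in LV-MEIS1 against HOXB13ko. With equal sums it was HOXA9 (-0.018) in HOXB13ko-LV-MEIS1 against HOXB13ko, and with HOXA9 added to HOXA10, an alternative chosen after seeing the data, HOXA10 (-0.056) in HOXB13ko against Control. The others came from leaving out a library. In LV-MEIS1 against Control the range was -0.096 to 0.013 for HOXA3, -0.007 to 0.037 for HOXA5 and -0.14 to 0.047 for HOXA6. In HOXB13ko against Control it was -0.003 to 0.12 for HOXA10 and -0.113 to 0.029 for HOXA4. In HOXB13ko-LV-MEIS1 against HOXB13ko it was -0.145 to 0.095 for HOXA4 and -0.104 to 0.091 for HOXA9, and in the difference of the MEIS1 effects -0.033 to 0.157 for HOXA6 and -0.063 to 0.133 for HOXA9. In HOXB13ko-LV-MEIS1 against Control it was -0.178 to 0.064 for HOXA4, -0.1 to 0.003 for HOXA5 and -0.07 to 0.064 for HOXA7. The order of the group levels held for 5 of the 9 genes with quantile scaling. A sum that includes the HOXA10-HOXA9 readthrough gene was not run, and the alternatives of the comparisons of HOXB13ko-LV-MEIS1 with Control and of LV-MEIS1 with HOXB13ko were added after seeing the data. HOXA11, with as few as 17 estimated reads in a library, is the least precise of the 9.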
